A study of Rattus norvegicus with 16 samples.

Results

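Organisers and adhesion molecules of the neuromuscular junction, 6 of the 4737 genes with a probe set of their own, were read from 11 of the 8799 probe sets on the array, in rat extraocular muscle (EOM, the small muscles that move the eye) and in another rat skeletal muscle labelled TA. The members are all probe sets whose only gene symbol in the platform's probe table is Agrn (2 probe sets), Musk (1), Ache (3), Utrn (2), Ncam1 (2) or Ptn (1), each taken on its own. The single-colour oligonucleotide arrays cover 3 groups of total RNA: EOM (4 arrays, 4 numbered samples), TA collected at 6 hours (TA_6h, 8 arrays from 4 numbered samples) and TA collected at 1 hour (TA_1h, 4 arrays from 2 numbered samples). The event from which the hours count, the collection time of EOM, and the strain, age and treatment of the animals are not given in the sources used here. The labels do not tie a number to an animal. All p-values below therefore set a difference against the scatter of these samples, pooled over the groups in the fit, and that scatter may be technical.

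At the neuromuscular junction a motor nerve ending faces a patch of muscle membrane packed with acetylcholine receptors. Agrin, released by the nerve and also made by muscle, acts through the receptor kinase MuSK to cluster those receptors, and acetylcholinesterase in the cleft breaks down the transmitter. Utrophin links the cytoskeleton to the membrane at the receptor-rich crests, NCAM is a cell adhesion molecule that adult fibres keep mainly at the synapse and spread over the whole fibre after denervation, and pleiotrophin is a heparin-binding growth factor. Extraocular muscle is known for fibres with several small endplates beside fibres with a single one.

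The deposited intensities of EOM and TA differ in kind. In the EOM columns 24.3% of the values lie below 0, and the TA columns hold none at or below 0, so whenever EOM is set against TA, the muscle and the way its probes were summarised cannot be told apart. Values under a floor of 56.5, the 25th percentile of all intensities, were raised to it before log2 was taken. A difference with all EOM arrays at the floor is written "at least". It is a lower limit for this floor only, and a higher floor makes it smaller. Its p-value takes no spread from EOM, whose samples still count in the fit, so it can be too small. For 5 TA arrays (TA_6h 3a, 3b, 4a and 4b and TA_1h 2b), called low-actin arrays here, control probes in the middle of the beta-actin transcript read 0.146 to 0.390 of those at its 3′ end. That ratio was 0.815 to 1.28 for the remaining 7 TA arrays and 0.891 to 0.978 for EOM. Skeletal muscle genes marked all groups, with the fast troponin gene Tnnt3 above the floor on all 16 arrays. Ckm (muscle creatine kinase) was above it on 4 of 4 EOM, 5 of 8 TA_6h and 3 of 4 TA_1h arrays. Ckm fell as low as 0.0219 in TA_6h, and Acta1 (skeletal muscle actin) as low as 7.17 in TA_1h. The cause of these low readings was not tested. Myh13, the myosin named for extraocular muscle, read 7213 to 8013 in EOM and 41.9 to 436 in TA. These are bulk samples, in which fewer cells of a type and less RNA per cell cannot be told apart.

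**Figure D1:**
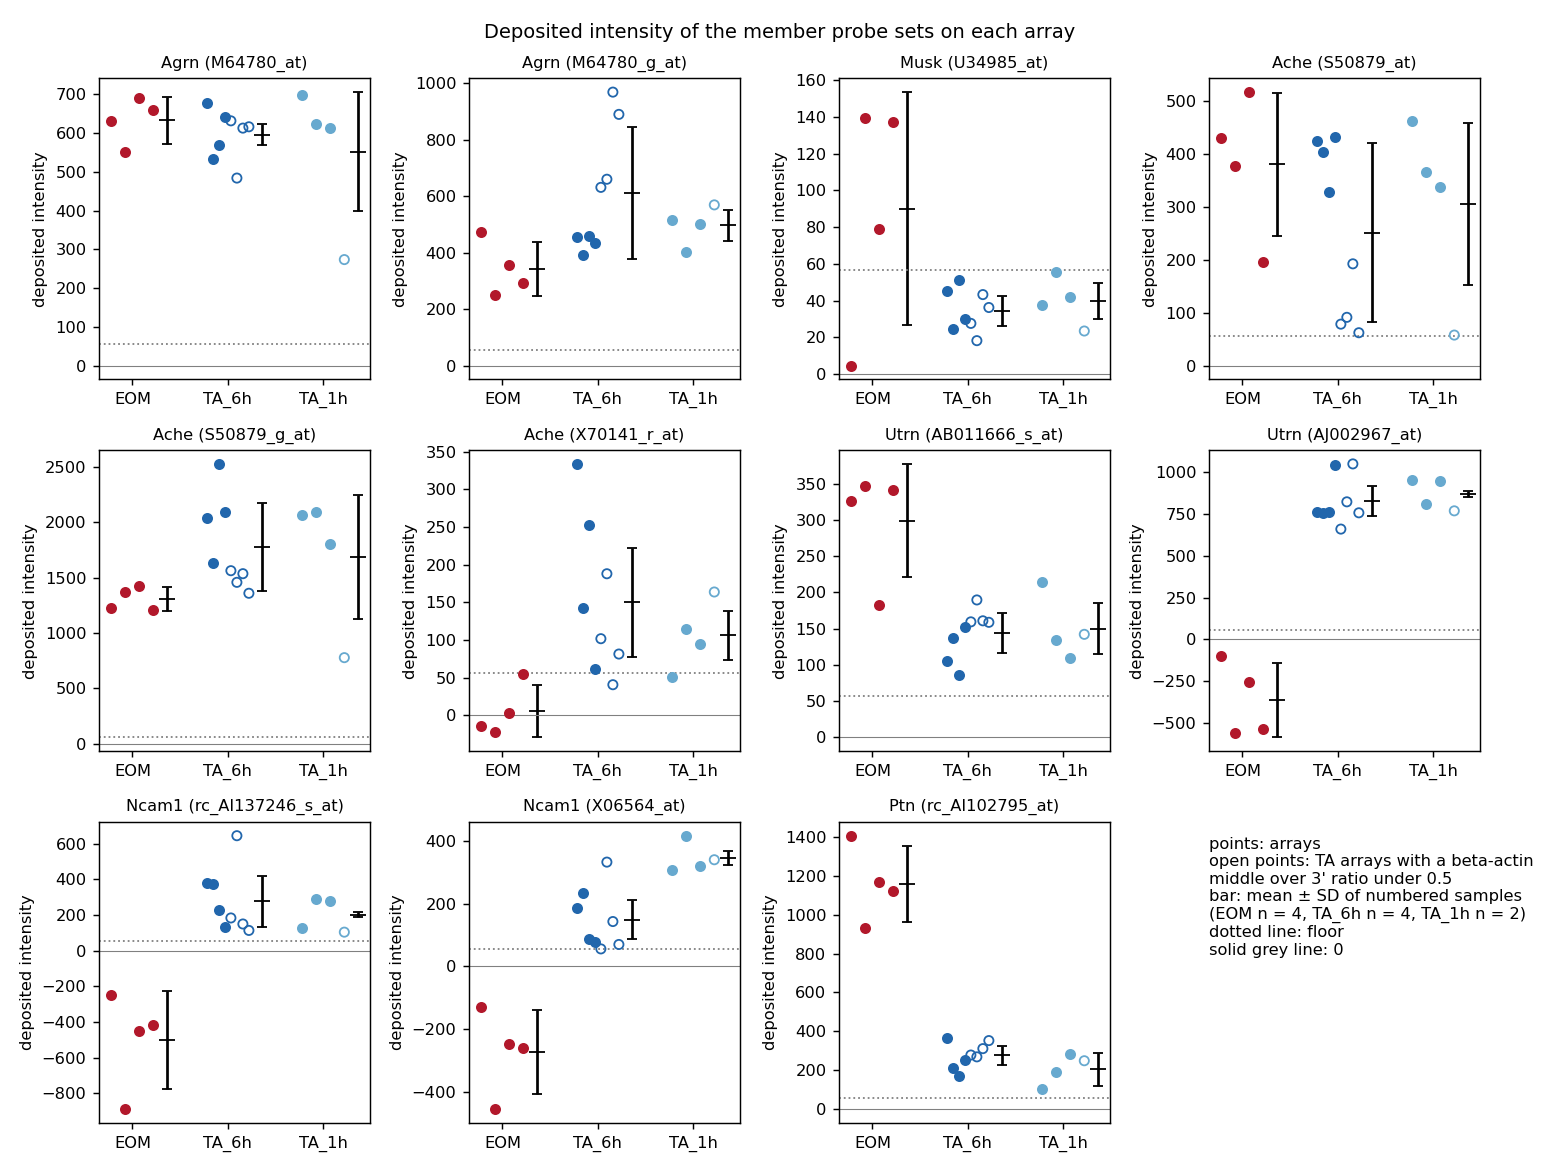
Deposited intensity (linear scale) of the 11 member probe sets on each of the 16 arrays, with open points for the 5 low-actin arrays, bars for the mean and SD over numbered samples and a dotted line at the floor. Ptn in EOM lies above every TA array, whereas both Ncam1 probe sets and Utrn AJ002967_at lie below 0 on every EOM array.

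The first comparison asks how junction genes differ between EOM and TA collected at 6 hours. Pleiotrophin was higher in EOM by 4.25-fold, a utrophin probe set was higher by 2.07-fold, and both NCAM probe sets were lower, by at least 4.12- and at least 2.22-fold. The other utrophin probe set was lower by at least 14.5-fold, an acetylcholinesterase probe set was lower by at least 2.23-fold and an agrin probe set by 1.74-fold. In all, 7 of the 10 member probe sets tested were called, 2 higher and 5 lower, at an adjusted p under 0.05 in limma. Over all 7640 probe sets tested 47.2% were called, 21.9% higher and 25.3% lower, and the members' share was not tested against it. The median log2 difference was -0.61 over the 10 members and -0.11 over all probe sets. Of the 5 members called lower, 3 (Utrn AJ002967_at and both Ncam1 probe sets) had EOM intensities below 0 on all 4 arrays. So did 24% of all 1935 lower calls and 10.3% of all probe sets tested.

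**Figure D2:**
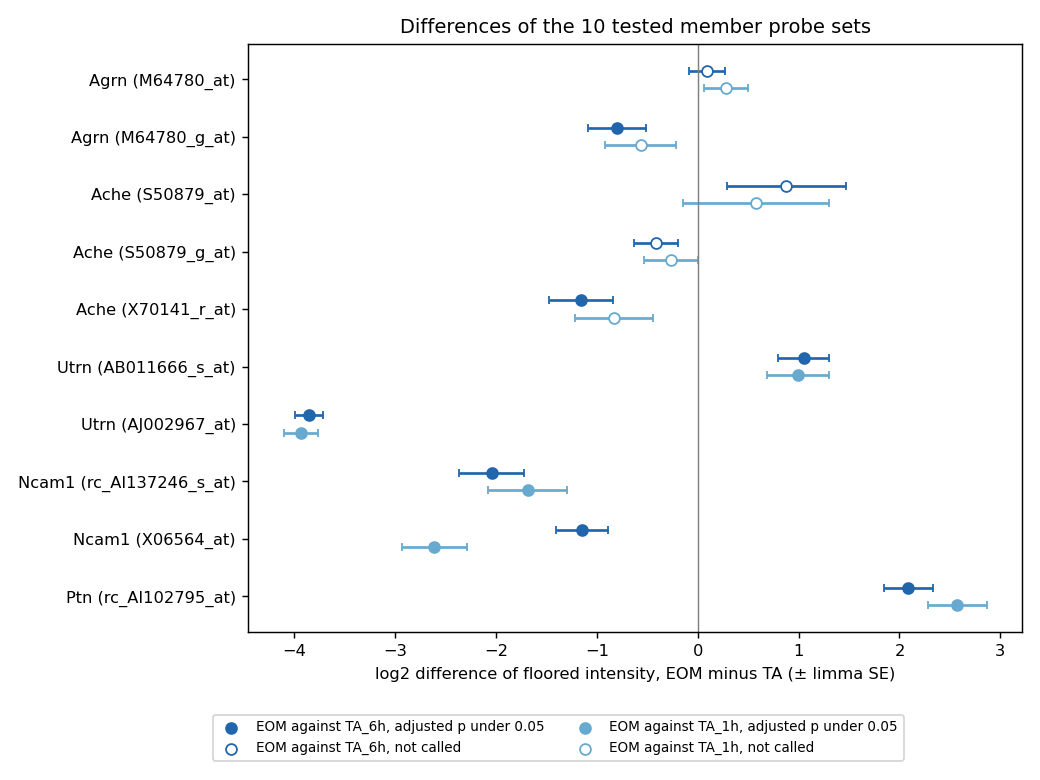
Log2 differences of floored intensity (EOM minus TA, with limma standard errors) for the 10 tested member probe sets, against TA_6h (dark) and TA_1h (light); filled points are called at an adjusted p under 0.05. Ptn and Utrn AB011666_s_at lie to the right of 0 in both comparisons, and Utrn AJ002967_at lies near -3.86 and -3.94. Both comparisons share the EOM samples.

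Agrin, the organiser that clusters the receptors, was read by M64780_at and M64780_g_at, both designed on the same database sequence. M64780_at gave 631, 550.3, 690.8 and 660.5 on the EOM arrays, and 484 to 679 with a median of 615 on the 8 TA_6h arrays. The TA_1h arrays gave 698, 624, 613 and 274, so the groups overlapped throughout and only TA_1h 2b stood low. The log2 difference between EOM and TA_6h was 0.09 ± 0.18 (limma SE, adjusted p = 0.70), with a 95% interval from -0.31 to 0.49. M64780_g_at gave 471, 249.99, 355 and 293 in EOM, 392 to 969 with a median of 545 in TA_6h, and 514, 401, 501 and 569 in TA_1h. The EOM values of arrays 2, 3 and 4 lay below every TA array, and that of array 1 lay among them. This probe set was lower in EOM than in TA_6h, at 342 ± 96.3 against 611 ± 234 (SD, n = 4 each), with a log2 difference of -0.80 ± 0.29 (limma adjusted p = 0.044).

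The M64780_g_at call did not hold without the low-actin arrays. In TA_6h these are all arrays of samples 3 and 4, so the ratio and the samples cannot be told apart. Leaving them out keeps only samples 1 and 2 of TA_6h. The 5 low-actin arrays read 569 to 969 and the other 7 TA arrays read 392 to 514, with no overlap. Without the 5 arrays the log2 difference was -0.38 (limma adjusted p = 0.25), with only them as TA it was -1.22 (0.022), and with a term for them it was -0.46 (0.082). The call was also lost after scaling all arrays to the same median (-0.69, limma adjusted p = 0.11), without a filter on low values (0.063), with only the 2 groups compared (0.059), and without any of EOM replicates 2, 3 or 4, TA_6h replicates 3 or 4, or either TA_1h replicate (-0.83 to -0.57). For M64780_at the 5 arrays read 274 to 632 and the other 7 read 534 to 698.

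MuSK, the kinase through which agrin acts, was at the limit of measurement. Its probe set U34985_at gave 4.67, 139.5, 79.0 and 137 on the EOM arrays, so 3 of the 4 were above the floor. All 12 TA arrays lay under it, at 18.3 to 51.1 in TA_6h and 23.5 to 55.4 in TA_1h. The probe set therefore missed the requirement of 4 arrays above the floor and was not tested. When all probe sets were fitted without that requirement, the floored log2 difference was 0.77 ± 0.28 against TA_6h (limma adjusted p = 0.063) and 0.77 ± 0.34 against TA_1h (0.14). With all TA arrays and EOM array 1 at the floor, these values depend on the floor and take no spread from TA.

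The E-box CAGCTG is a motif bound by MyoD and myogenin, which drive muscle genes including those of the junction. Of the 5 members with an entry in the RefSeq promoter table (GRCr8), Musk alone holds it in the 250 bases before the transcript start that the table uses, and the stretch around it is shown because both of these factors were measured here. It reads 5′ to 3′ on the plus strand at chr5:77853645-77853674, with the motif in capitals and its first base 79 bases before that start. RefSeq's outermost start of the gene lies 176 bases further upstream, so the motif, 97 bases after it, is inside the annotated gene.
Musk: gtgagtactcccCAGCTGgccttgtccatc
The motif, its own reverse complement, is in 4007 of all 33469 such windows. CCGGAA or its reverse complement TTCCGG, the core of the synaptic N-box, is in none of the 5 member windows and in 4218 of all. Myog (myogenin) was lower in EOM by at least 13.9-fold, at -293 ± 275 against 870 ± 344 in TA_6h (SD, n = 4 each, limma adjusted p = 6.39e-06). Myod1 was at 426 ± 101 in EOM and 1089 ± 331 in TA_6h (log2 -1.31 ± 0.25, limma adjusted p = 0.0018). A motif match describes these letters only.

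Acetylcholinesterase, which ends transmission by hydrolysing acetylcholine, was read by 3 probe sets that did not give the same answer. S50879_g_at gave 1229, 1368, 1427 and 1209 in EOM, 1359 to 2528 with a median of 1599 in TA_6h, and 2068, 2096, 1802 and 777 in TA_1h. EOM was thus at the low end of the TA range, with TA_1h 2b below it. The log2 difference from TA_6h was -0.42 ± 0.22 (limma adjusted p = 0.15), with a 95% interval from -0.91 to 0.08. S50879_at gave 429.6, 378, 517 and 197 in EOM, 62.2 to 432 with a median of 261 in TA_6h, and 463, 366, 338 and 57.8 in TA_1h. Its log2 difference from TA_6h was 0.88 ± 0.59 (limma adjusted p = 0.25), with a 95% interval from -0.44 to 2.20, and the groups overlapped. X70141_r_at gave -14.2, -22.2, 3.77 and 55.4 in EOM, all at the floor, against 40.8 to 334 with a median of 122 in TA_6h and 50.7, 115, 94.9 and 164 in TA_1h. This probe set was called lower in EOM than in TA_6h (log2 -1.16 ± 0.31, limma adjusted p = 0.013), although EOM array 4 lay above the lowest TA array.

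Both S50879 probe sets split the TA arrays by the beta-actin ratio. S50879_at read 57.8 to 192 on the 5 low-actin arrays and 329 to 463 on the other 7, and S50879_g_at read 777 to 1563 against 1634 to 2528. Neither range overlapped, nor did that of Agrn M64780_g_at, in which the 5 arrays were the higher ones. Of all probe sets tested 13.4% split the arrays without overlap, 8.91% with the 5 arrays lower and 4.52% with them higher. Without these arrays S50879_g_at was lower in EOM than in TA_6h (log2 -0.65, limma adjusted p = 0.012) and than in TA_1h (-0.57, 0.020). The 4 EOM arrays then lay below all 7 remaining TA arrays, and the share of all probe sets that did so was not counted. The only share counted is for all TA arrays, a stricter condition that S50879_g_at did not meet. There 21.8% of tested probe sets had every EOM array below. S50879_g_at was also called lower than in TA_6h with a term for the low-actin arrays (-0.77, limma adjusted p = 0.0028) and after quantile normalization (-0.66, 0.022). Without them S50879_at differed from TA_6h by -0.14 (limma adjusted p = 0.78), and with only them as TA it was higher in EOM by 1.90 (0.014). X70141_r_at was not called with only these arrays as TA (-0.78, limma adjusted p = 0.072), with the floor raised to the 40th percentile (-0.35, 0.094) or with arrays of a number as a random block (0.058), and it read -2.62 with a floor at the 10th percentile.

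**Figure D3:**
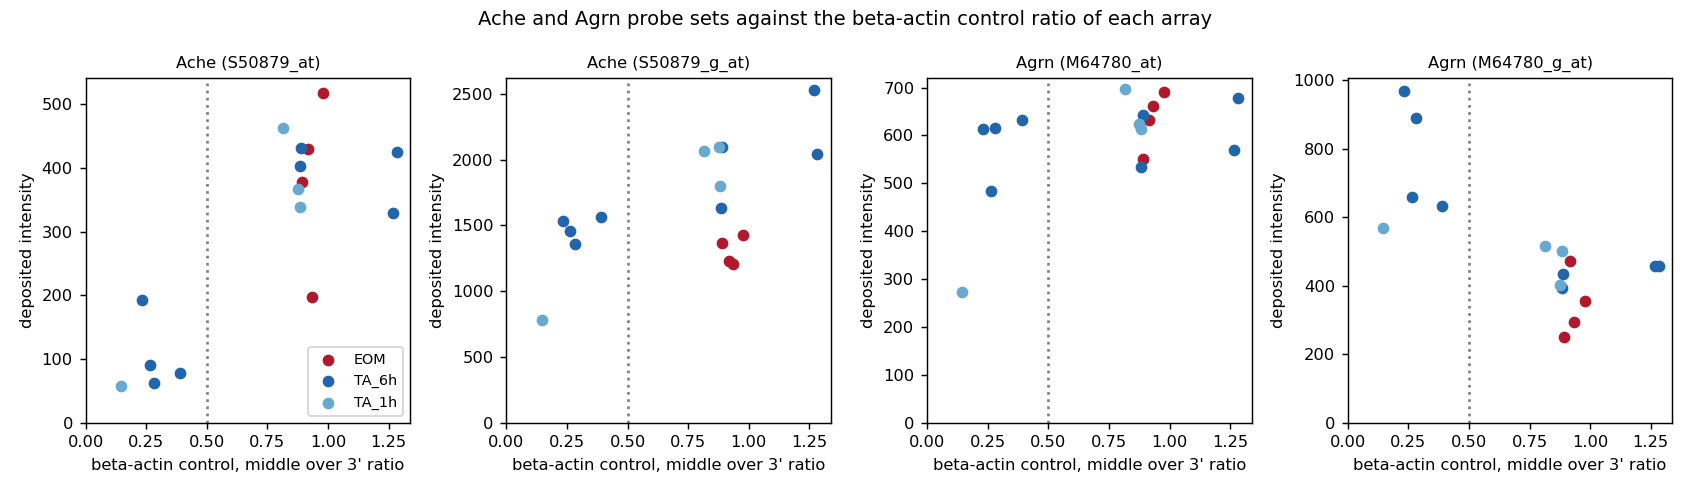
Deposited intensity of the S50879 probe sets of Ache and the M64780 probe sets of Agrn against the middle over 3′ ratio of the beta-actin control on each of the 16 arrays; the dotted line marks a ratio of 0.5. Left of it, both Ache probe sets read lower and Agrn M64780_g_at reads higher than on the 7 TA arrays to the right.

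Utrophin, the autosomal relative of dystrophin that adult fibres keep at the junction, gave opposite answers from its 2 probe sets. AB011666_s_at gave 326, 346, 183 and 341 in EOM, 86.0 to 189.5 with a median of 155 in TA_6h, and 215, 135, 109 and 142 in TA_1h. EOM arrays 1, 2 and 4 lay above all 12 TA arrays and array 3 lay inside their range. The group means were 299 ± 78.1 in EOM and 144 ± 27.7 in TA_6h (SD, n = 4 each), a log2 difference of 1.05 ± 0.25 (limma adjusted p = 0.0073). The call was lost when the low-actin arrays were the only TA arrays (0.80, limma adjusted p = 0.080), and without those arrays the difference was 1.30 (0.014).

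AJ002967_at gave -103, -559.9, -259 and -540.5 on the EOM arrays. It gave 659.9 to 1050.3 with a median of 765 in TA_6h, and 952, 810.4, 947 and 769 in TA_1h. No EOM array came near the TA range. The log2 difference from TA_6h was -3.86 ± 0.14 (limma adjusted p = 9.15e-08), which is a bound set by the floor: it was -5.87 with a floor at the 10th and -2.61 at the 40th percentile. Within TA it read 828 ± 88.9 (SD, n = 4) in TA_6h and 869.9 ± 16.4 (SD, n = 2) in TA_1h, and the low-actin arrays (659.9 to 1050.3) spanned those of normal ratio (758 to 1046). The 2 probe sets thus cannot be read as a single direction for the gene.

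NCAM, the adhesion molecule, was below 0 in EOM through both probe sets. The probe set rc_AI137246_s_at gave -247, -888, -452 and -415 in EOM, 114 to 645 with a median of 206 in TA_6h, and 129, 293, 278 and 104 in TA_1h. X06564_at gave -131, -457, -247 and -260.2 in EOM, 56.2 to 334 with a median of 116 in TA_6h, and 309, 418, 322 and 341 in TA_1h. No EOM array reached the TA range for either, a pattern that 21.8% of all tested probe sets share. The log2 differences from TA_6h were -2.04 ± 0.32 (limma adjusted p = 0.00058) and -1.15 ± 0.26 (0.0051). They depended on the floor: with the 10th percentile they were -4.06 and -3.16, X06564_at gave -1.86 when values below 0 were set to 0 and 50 was added instead of a floor, and with the 40th percentile they were -0.83 (limma adjusted p = 0.040) and -0.34 (0.14). Without the low-actin arrays both stayed called, at -2.18 and -1.24.

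Pleiotrophin, a secreted growth factor that binds heparan and chondroitin sulphate proteoglycans, was the only tested member with every EOM array above every TA array. Its probe set rc_AI102795_at gave 1405, 929.8, 1169 and 1123 in EOM, 171 to 366 with a median of 274 in TA_6h, and 102, 191, 282 and 249 in TA_1h. This held for 14.7% of all tested probe sets. The means were 1157 ± 195 in EOM and 277 ± 49.7 in TA_6h (SD, n = 4 each), a log2 difference of 2.09 ± 0.24 (limma adjusted p = 8.58e-05). The call held in all 25 alternatives run for this comparison, with log2 differences from 1.90 to 2.27. Beside it, 9 of 15 nerve and Schwann cell markers tested were called higher and 2 lower. That is 73.3% against 47.9% of the 4317 genes tested, and the difference in share was not tested. Their summed intensity was 15062 to 18799 in EOM, 7194 to 9604 in TA_6h and 6095 to 9969 in TA_1h. Pmp22 was the brightest of them in EOM and weighs most in the EOM sum, at 7562 ± 1672 there and 1007 ± 355 in TA_6h (SD, n = 4 each). A sum without it was not computed. Sox10, the Schwann cell transcription factor, was at the floor on all TA arrays and read 316 ± 21.7 in EOM (SD, n = 4). The 2 lower in EOM than in TA_6h were Ngfr (log2 -1.17 ± 0.34, limma adjusted p = 0.018) and Nefh (-1.14 ± 0.35, 0.022). Mag and Snap25, among the 9 higher, each had another probe set called lower. Of 10 fibroblast markers 5 were higher and 1 lower, 60% called, with sums of 65582 to 84033 in EOM, 40533 to 75134 in TA_6h and 28882 to 39927 in TA_1h. Fn1, among the 5 higher, and Bgn, the 1 lower, each had another probe set called in the opposite direction. The part of nerve, Schwann cells or fibroblasts in the values of Ptn, Ncam1 or Agrn was not tested.

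The second comparison sets EOM against TA collected at 1 hour, and shares the EOM samples with the first. The same directions were called for Ptn, both Utrn probe sets and both Ncam1 probe sets, 5 of 10 tested members, 2 higher and 3 lower. Of all probe sets 37.2% were called, 17.7% higher and 19.5% lower. Ptn was higher by 5.96-fold (log2 2.57 ± 0.30, limma adjusted p = 0.00013), at 206 ± 84.2 in TA_1h (SD, n = 2). Utrn AB011666_s_at was higher (0.99 ± 0.31, 0.030) and AJ002967_at at least 15.3-fold lower (-3.94 ± 0.17, 5.99e-07). Ncam1 was at least 6.11-fold lower through X06564_at (-2.61 ± 0.32, 0.00018) and at least 3.22-fold lower through rc_AI137246_s_at (-1.69 ± 0.39, 0.0075). No agrin or acetylcholinesterase probe set was called (log2 -0.83 to 0.58, limma adjusted p = 0.12 to 0.57).

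The calls of Ptn, Utrn AJ002967_at and Ncam1 X06564_at held in all alternatives run for this comparison. That of Utrn AB011666_s_at was lost without EOM replicate 1, 2 or 4 or either TA_1h replicate (0.77 to 1.22, limma adjusted p = 0.060 to 0.21), with only the 2 groups compared (0.058), and with array 2b, the low-actin array of TA_1h, as the only TA_1h sample (0.094). That of Ncam1 rc_AI137246_s_at was lost without TA_1h replicate 1 (-1.59, 0.061), with array 2b alone (-0.88, 0.22) and after raising the floor to the 40th percentile (-0.54, 0.26). Where 1 TA_1h sample was left, it was assumed to vary like the other groups, which supply the spread. With array 2b alone, Ache S50879_at (2.63, 0.014) and S50879_g_at (0.75, 0.011) and Agrn M64780_at (1.20, 0.0037) were called higher in EOM. X70141_r_at of Ache was then called lower (-1.54, 0.023), as it was with a floor at the 10th percentile (-2.31, 0.020), with log2(value + 50) (-1.30, 0.023), with only the 2 groups compared (0.018) and without TA_6h replicate 4 (0.035). Over the floors the difference of AJ002967_at ran from -5.95 to -2.69, that of X06564_at from -4.63 to -1.36 and that of rc_AI137246_s_at from -3.70.

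The third comparison, TA at 6 against 1 hour, has no EOM arrays in it. Of the 10 members 0 were called by limma, and of all 7640 probe sets 0 (0%); at an unadjusted p under 0.05 the counts were 1 and 424. The 1 member was Ncam1 X06564_at, at 150 ± 63.4 in TA_6h (SD, n = 4) and 348 ± 22.7 in TA_1h (SD, n = 2), a log2 difference of -1.46 ± 0.32. The limma p was 0.0010 unadjusted and 0.50 adjusted. Its 4 TA_1h arrays, at 309 to 418, lay above 7 of the 8 TA_6h arrays, the exception being array 3b at 334. The other Ncam1 probe set differed by 0.36 ± 0.39 in the opposite direction. Among the rest, log2 differences ran from -0.30 ± 0.72 for Ache S50879_at to 0.49 ± 0.30 for Ptn.

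The partners of the members in the junction were followed through 23 tested genes of a list of 46. Against TA_6h, 9 were higher in EOM and 2 lower, 47.8% called against 47.9% of the 4317 genes tested, with a median log2 difference of 0.52 against -0.08. Chrna1, the receptor subunit that carries most of the acetylcholine site, was at 2514 ± 163 in EOM and 655 ± 222 in TA_6h (log2 2.04 ± 0.27, limma adjusted p = 0.00020). Of the 5 muscle receptor subunits 4 were called higher, Chrnb1 being the exception (0.12 ± 0.36). Rac1, a small GTPase downstream of MuSK, was higher (1.55 ± 0.14, limma adjusted p = 2.04e-05), as was the adaptor Crk (1.62 ± 0.57, 0.039). Crk was not called against TA_1h (1.01 ± 0.70, limma adjusted p = 0.29). Scn4a, the muscle sodium channel concentrated around the endplate, was lower (-1.68 ± 0.42, 0.0081). The collagen tail of acetylcholinesterase, Colq, did not pass the test (-0.09 ± 0.18, 0.69). Against TA_1h, 9 were higher and 1 lower, 43.5% called, where 37.4% of all genes tested were called.

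**Figure D4:**
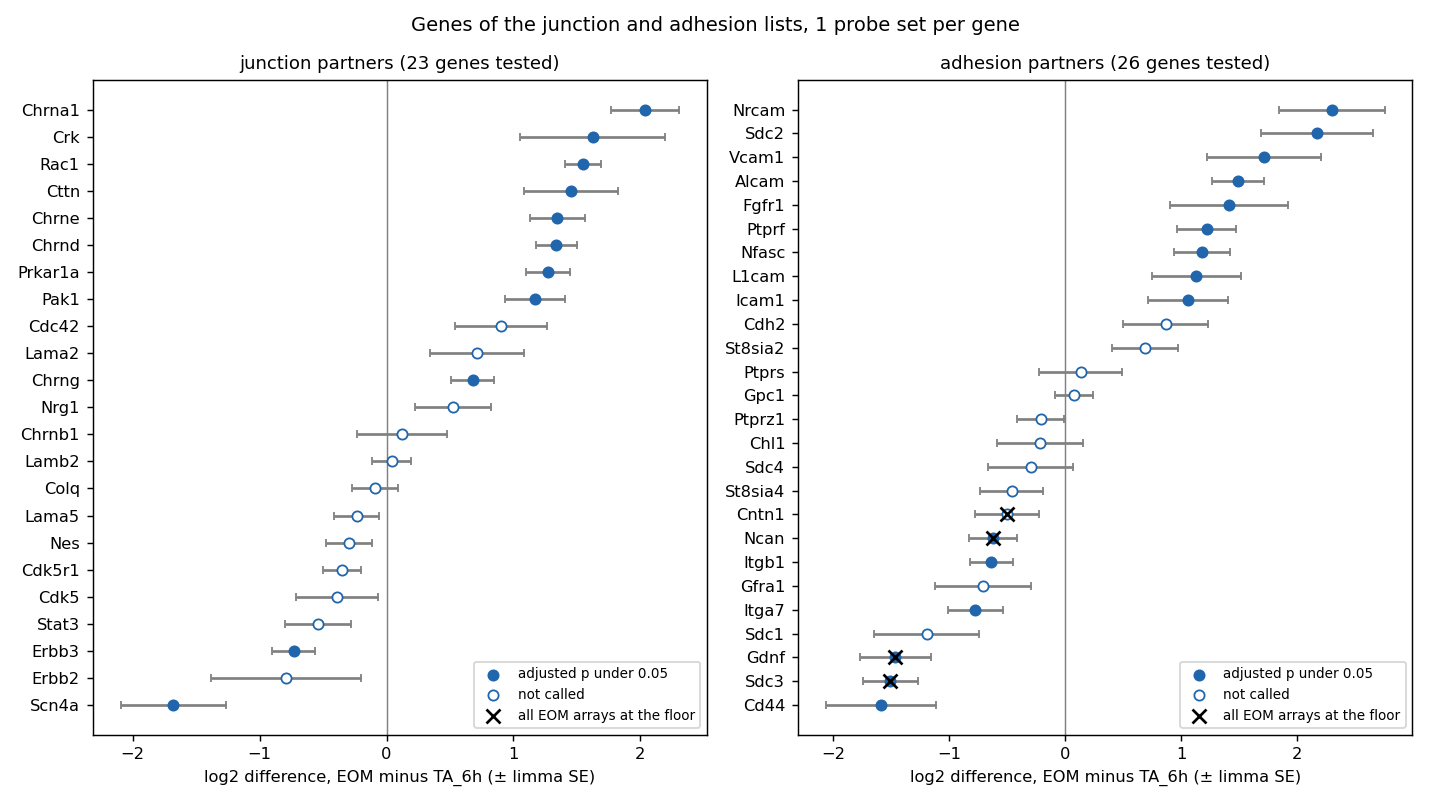
Log2 differences (EOM minus TA_6h, with limma standard errors) of the 23 junction and 26 adhesion list genes tested, 1 probe set per gene; filled points are called and crosses mark genes with all EOM arrays at the floor. Chrna1 leads the junction genes and Scn4a ends them; Nrcam and Cd44 are the ends of the adhesion list.

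Of 26 adhesion and growth factor receptor partners tested (a list of 36), 9 were higher and 6 lower in EOM than in TA_6h. That is 57.7% called against 47.9% of all genes tested, a gap that was not tested. The median log2 difference of the 26 was -0.07. The neuronal adhesion molecule Nrcam (2.30 ± 0.45, limma adjusted p = 0.0023), the heparan sulphate proteoglycan Sdc2 (2.17 ± 0.48, 0.0045) and Vcam1 (1.71 ± 0.49, 0.016) were higher, and the hyaluronan receptor Cd44 (-1.59 ± 0.47, 0.020) was lower. Nrcam varied widely in EOM, at 798 ± 706 (SD, n = 4). Against TA_1h Vcam1 was not called (1.26 ± 0.60, limma adjusted p = 0.13), while Nrcam, Sdc2 and Cd44 were. Sdc3, or N-syndecan, and Ptprz1 are both known receptors of pleiotrophin. Sdc3 had all EOM arrays at the floor and below 0 on average (-487 ± 171, SD, n = 4) and was called lower (-1.51 ± 0.23, 0.00056). Ptprz1 was above the floor on 1 of 4 EOM and 3 of 8 TA_6h arrays and was not called (-0.21 ± 0.20, 0.40). Against TA_1h 6 of the 26 were higher and 2 lower, 30.8% called against 37.4% of all genes tested.

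Of the complex that utrophin and dystrophin join, 4 of 14 list genes were tested. Against TA_6h 1 of these was called (25%, where 47.9% of all genes tested were called). Nos1, the neuronal nitric oxide synthase of the muscle membrane, was lower with all EOM arrays at the floor (-1.54 ± 0.17, limma adjusted p = 6e-05). Dmd, dystrophin itself, did not pass the test (0.23 ± 0.40, 0.65). A list of 17 genes known to respond to denervation or to direct myogenesis shares Chrna1 and Chrng with the junction list. Of its 13 genes tested, 6 were higher and 4 lower in EOM than in TA_6h. That is 76.9% called against 47.9% of all genes tested, a gap that was not tested. The median log2 difference of the 13 was 0.54. Their largest differences were those of the neonatal myosin Myh8 (6.70 ± 0.20, 4.33e-08), Myog, Chrna1 and Id2, an inhibitor of myogenic factors (1.97 ± 0.25, 0.00017). In that list 6 were higher and 2 lower against TA_1h, 61.5% called, where 37.4% of all genes tested were called. In each of the 4 lists 0 genes were called between TA_6h and TA_1h.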

How the data were processed

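The authors deposited 1 linear intensity per probe set and array. No aligner, summary method or build is given in the sources used here. Each array's mean, trimmed by 2% at either end, was 801.1 to 801.8, so arrays were used as deposited. Log2 values of arrays that share a group and a number were averaged into 1 sample; joining TA_6h arrays 1 and 2, which carry no letter, with 1b and 2b is an inference. After leaving out 59 controls, probe sets with 4 or more arrays above the floor were tested in limma 3.58.1 (R 4.3.3) by a single lmFit and eBayes fit of all 3 groups (7 residual and 2.83 prior degrees of freedom), with Benjamini-Hochberg adjustment over all 7640. After a difference, ± gives limma's standard error; after an intensity it gives the SD of the numbered samples. The number of arrays limits the precision.

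Symbols come from GEO's platform annotation, in which 7018 probe sets have 1 symbol, 308 several and 1473 none; the gene numbers of all 6 members match RefSeq entries. List genes use their brightest tested probe set, and up to 4 called genes with the largest differences are named per list. Myod1, Colq, Chrnb1, Dmd, Sdc3, Ptprz1, Sox10, Pmp22, Ngfr, Nefh, Mag, Snap25, Fn1, Bgn, Aif1 and Thbd are named beside them, chosen after their values were seen. The members and lists were chosen with earlier results of these data known. The fit was tested on simulated data that had no floor, so that test does not cover differences with all EOM arrays at the floor. Python 3.11.15 with matplotlib 3.10.9 drew the figures.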

Additional observations from a re-analysis of the deposited data

Results flagged for a closer look

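Among 22 sets of 4 numbered samples (11 probe sets in EOM and in TA_6h), 2 held a sample far from the other 3, where chance flags about 1 in 20 sets. Utrn AB011666_s_at read 183 in EOM replicate 3 against 326 to 346 in the other EOM samples. Agrn M64780_at read 558 in TA_6h replicate 3 against 606 to 615 in the others.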

How the results depend on the processing

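Of 728 recomputed differences of member probe sets, 686 kept their side of the threshold, 29 calls were lost, 13 were gained and 0 of the differences called in the report changed sign. Ache S50879_g_at against TA_1h, not called in the report (-0.27), was called lower without the low-actin arrays (-0.57) and higher with only them as TA (0.75). When all 16 arrays had to exceed the floor, which leaves 6 members, 3 were called against TA_6h and 2 against TA_1h (7 and 5 with all); over all probe sets the calls were then 1927 in place of 3606 and 1512 in place of 2843, fewer being tested. Leaving out each numbered sample gave 6 to 7 called members and 3156 to 3514 probe sets against TA_6h. Against TA_1h it gave 3 to 6 members and 1861 to 3045 probe sets, the lowest of both without TA_1h replicate 1. Between TA_6h and TA_1h it gave 0 members and 0 to 1 probe sets. There 0 members were called in any alternative, while all probe sets gave 8 calls without a filter, 1 with all 16 arrays above the floor, 1 with each array as its own sample, 45 without the low-actin arrays and 57 with a term for them; the cause was not tested. Whether the numbers pair EOM with TA_6h cannot be told from 4 numbers per group. Deviations of same-numbered samples correlated at 0.021 to 0.10, and 4 of 4 EOM but 2 of 4 TA_6h samples correlated best with their own number. With number as a replicate block, Agrn M64780_g_at (-0.80, limma adjusted p = 0.067) was no longer called against TA_6h, nor Utrn AB011666_s_at (0.98, 0.083) against TA_1h.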

Other observations

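Over the 10 numbered samples, the genes whose floored log2 values followed a member most closely, among about 3318 probe sets that exceeded the floor everywhere, are given with Pearson's r as a description; the points share the muscle difference and the arrays. Ptn was followed by Atp5if1 (0.989), Igfbp6 (0.988) and Wsb2 (0.982), and Utrn AB011666_s_at by Gsta4 (0.961), Anpep (0.950) and Fev (0.943). Ache S50879_g_at was followed by Phkg1 (0.959), Glul (0.930) and Ncaph2 (0.929), and S50879_at by Atp6v1b2 (0.940), Sparc (0.938) and Apbb1 (0.930). Agrn M64780_g_at was followed by Kxd1 (0.945), Furin (0.945) and Cyp4a8 (0.939), and M64780_at by Galt (0.901), Tle5 (0.833) and Epn1 (0.813). The probe sets of 1 gene shared none of these.

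Of 9 immune markers tested 5 were higher and 2 lower in EOM than in TA_6h, 77.8% called against 47.9% of all genes tested. Their summed intensities were 11494 to 17005 in EOM and 3811 to 7012 in TA_6h. Of 6 endothelial markers 1 was higher and 2 lower, 50% called (2120 to 2837 in EOM and 2620 to 3769 in TA_6h). The immune marker Aif1, called higher, and the endothelial marker Thbd, called lower, each had another probe set called in the opposite direction. Of 7 muscle fibre markers 1 was higher and 2 lower, 42.9% called (88400 to 111344 in EOM and 69558 to 221935 in TA_6h).

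Arrays of the same number differed most for Ache X70141_r_at and Ncam1 rc_AI137246_s_at, with median gaps of 0.96 and 0.98 on the floored log2 scale over 6 pairs, and the largest gap was 2.56, between TA_6h 3a and 3b for Ncam1 X06564_at. For Ptn the median gap was 0.37 and the largest 0.91.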
